A study of Homo sapiens with 4 samples.

Results

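Cells of the human endometrial cancer line Ishikawa, an established line from an adenocarcinoma, were treated for 1 hour with 10 nM estradiol (17-beta-estradiol), or with 10 nM estradiol and 100 nM dexamethasone together, and open chromatin was mapped by ATAC-seq. In this assay a transposase inserts sequencing adapters into accessible DNA, and places where the resulting tags pile up are called as peaks. The comparison asks what dexamethasone changed in cells that also received estradiol. It sets every peak called with both hormones (the combination list) against every peak called with estradiol alone. These lists together hold 4918 of the 15269 peaks of the series. The combination list has 73, 62 and 11 peaks in the 3 classes defined below, and the estradiol list has 4645, 120 and 7. The vehicle list (DMSO, 1923 peaks) and the list for 100 nM dexamethasone alone (8428 peaks) serve as a background measured in the same way. All 4 libraries came from cells grown without phenol red and in serum stripped with charcoal, which removes most steroid hormones, and each used 250000 cells. Each treatment had 1 library, so no spread between replicates exists, no test between treatments was possible, and the values describe these libraries.

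Estradiol acts through the estrogen receptors and dexamethasone, a synthetic glucocorticoid, through the glucocorticoid receptor. Both receptors are ligand-activated transcription factors that bind mostly at enhancers far from gene starts, where binding can be accompanied by more open chromatin. Peaks in 2 other kinds of place need a separate account. Mitochondrial DNA is not wrapped in nucleosomes and is cut freely. The assembled sequence beside a centromere, where the hg19 assembly holds a gap of unknown sequence, is rich in satellite repeats with many near-identical copies. The peaks were therefore divided into 3 classes: elsewhere in the nucleus, within 2 Mb of a centromere gap, and mitochondrial. No hg19 sequence or gene annotation was used, so positions are given without gene names, and neither the identity of the cell line nor receptor motifs could be checked.

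The combination library had 8240912 tags after duplicate removal and the estradiol library 20185339, a ratio of 0.408. The modelled fragment length, to which the caller extends each tag, was 51 bp against 84 bp. The product of tags and fragment length, which sets how many extended tags cover an average base, had a ratio of 0.248. Vehicle was the library nearest in depth, with 10694743 tags and a fragment length of 104 bp. It was still not alike in coverage: the ratio of combination to vehicle was 0.771 for tags and 0.378 for tags times fragment length. Depth and fragment length changed together with the treatment, so what giving both hormones did and what a weaker library did cannot be told apart.

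The combination list was short of peaks mainly in the bulk of the nuclear genome, less so beside centromere gaps, and not in mitochondrial DNA. Elsewhere in the nucleus there were 4645 peaks with estradiol and 73 with the combination, 63.6 times fewer. Within 2 Mb of a gap there were 120 and 62, 1.94 times fewer. In mitochondrial DNA there were 7 and 11. The classes thus made up very different shares of the lists. Peaks near a gap were 42.5% of the combination list (95% exact Clopper-Pearson interval 34.3 to 50.9) and 2.51% of the estradiol list (2.09 to 2.999), beside 2.81% with vehicle and 1.86% with dexamethasone alone. Mitochondrial peaks were 7.53% of the combination list (3.82 to 13.1) and 0.147% of the estradiol list (0.0590 to 0.302). These intervals cover counting error only. Part of the gap between the lists goes with their length: among as many of the strongest estradiol peaks by p-value as the combination list holds, 15.8% lay near a gap (10.3 to 22.7), and 0.685% were mitochondrial.

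By chromosome, peaks near a gap made up much of the combination list on some chromosomes and none of it on others. Chromosome 10 had 11 combination peaks, 10 of them near its gap, and chromosome 21 had 7, all near its gap. Chromosome 21 held 4.79% of the combination list and 0.566% of the estradiol list. On the Y chromosome all 5 combination peaks and all 4 estradiol peaks lay near the gap. Chromosome 1 had the most estradiol peaks, 502, and 9 combination peaks, of which 4 were near its gap. No combination peak was called on chromosome 13 or 22, where estradiol had 95 and 41. Chromosomes 3, 5, 9, 11, 14 and 15 had between 2 and 7 combination peaks each, none of them near a gap.

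**Figure D1:**
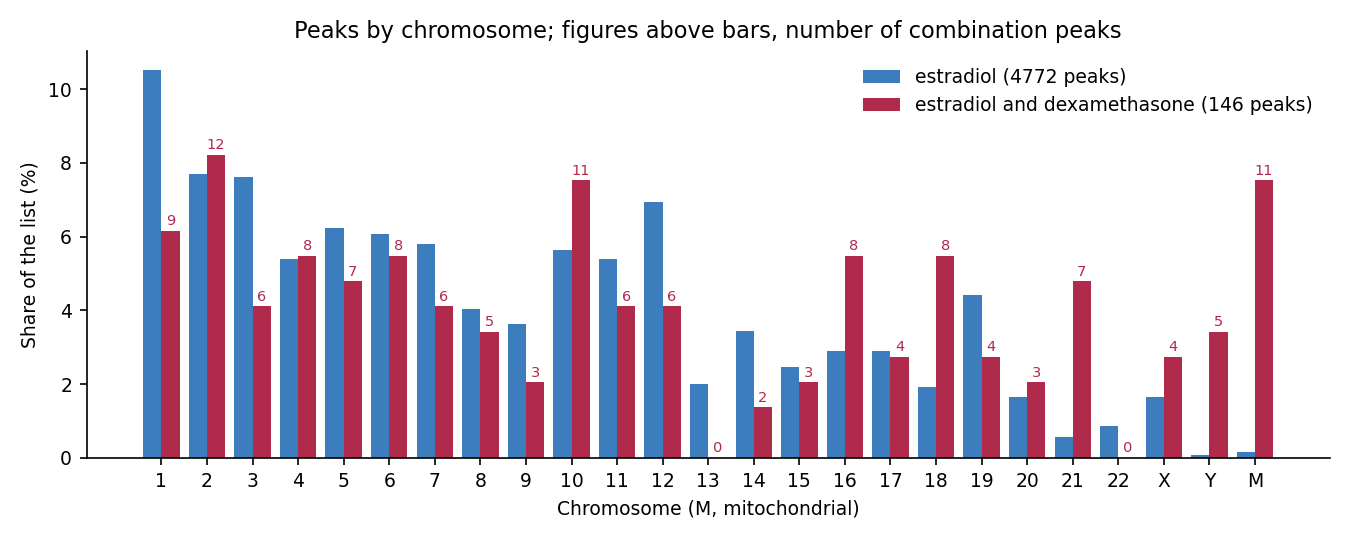
Share of each list on each chromosome (y axis, %), for the estradiol library (blue) and the library with estradiol and dexamethasone (red), with the number of combination peaks above each red bar. Chromosomes 2, 4, 10, 16, 18, 20, 21, X and Y hold a larger share of the combination list than of the estradiol list. So does mitochondrial DNA. Chromosomes 13 and 22 hold none of the combination list.

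Most combination peaks were at places also called with estradiol alone, in each of the 3 classes. Of all combination peaks, 121 overlapped an estradiol peak by at least 1 bp (82.9%), and 25 did not (17.1%). Near a gap 50 of 62 had an estradiol counterpart (80.6%, 68.6 to 89.6), elsewhere 62 of 73 (84.9%, 74.6 to 92.2), and in mitochondrial DNA 9 of 11 (81.8%, 48.2 to 97.7). The vehicle list held counterparts of 98 combination peaks (67.1%) and lacked 48 (32.9%), and the dexamethasone list held 109 (74.7%) and lacked 37 (25.3%). Away from the gaps 53 of the 73 peaks were called in all 3 other lists and 1 with estradiol but neither vehicle nor dexamethasone. Near a gap 31 of 62 were called in all 3, and 11 with estradiol but neither of the others. The estradiol list thus held 50 of the near-gap peaks where vehicle held 34 and dexamethasone 38. Away from the gaps the estradiol and dexamethasone lists held 62 each and vehicle 55. The estradiol library was also the deepest, with 20185339 tags against 14980230 with dexamethasone and 10694743 with vehicle, and the part of depth in these counts was not tested.

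In the other direction, nearly every estradiol peak away from the gaps went without a call in the combination library. Of all estradiol peaks, 110 had a combination counterpart and 4662 had none (2.31% and 97.7%). Vehicle held counterparts of 1680 and lacked 3092 (35.2% and 64.8%), and dexamethasone held 4235 and lacked 537 (88.7% and 11.3%). Away from the gaps the combination library called 59 of 4645 estradiol peaks (1.27%, 0.968 to 1.64), and vehicle 1624 (34.96%, 33.6 to 36.4). Near a gap the combination library called 44 of 120 (36.7%, 28.1 to 45.9), and vehicle 49 (40.8%, 32.0 to 50.2). All 7 mitochondrial estradiol peaks had a counterpart in every list.

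The share of estradiol peaks called again with the combination fell with distance from the gap. Within 0.1 Mb of it the combination library called 21 of 28 estradiol peaks (75%, 55.1 to 89.3), where vehicle called 13 and dexamethasone 19. Between 0.1 and 0.5 Mb it called 11 of 19 (57.9%, 33.5 to 79.7), and between 0.5 and 2 Mb 12 of 73 (16.4%, 8.79 to 27.0). Beyond that it called 2 of 153 between 2 and 5 Mb (1.31%), 14 of 834 between 5 and 20 Mb (1.68%) and 43 of 3658 farther out (1.18%). The vehicle shares in the last 3 ranges were 29.4%, 32.6% and 35.7%. The range between 0.1 and 0.5 Mb held fewer than 20 peaks, and the order of the ranges on either side of it does not rest on it. The 28 estradiol peaks nearest to a gap lay on 12 chromosomes. The median distance from a gap was 3.30 Mb over the nuclear combination peaks and 42.8 Mb over the nuclear estradiol peaks.

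**Figure D2:**
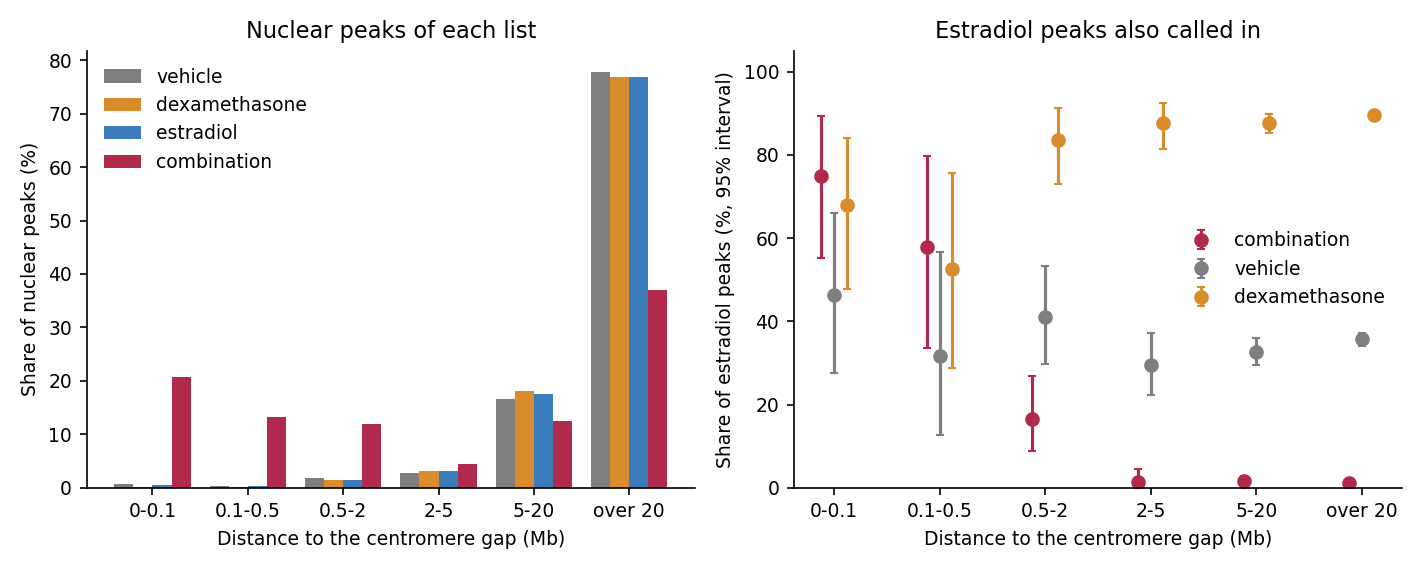
Left, share of the nuclear peaks of each list (y axis, %) by distance to the centromere gap (x axis, Mb). Right, share of the estradiol peaks at each distance that were also called in the combination, vehicle and dexamethasone libraries (points, with 95% exact intervals); the combination values fall from 75% within 0.1 Mb to 1.18% beyond 20 Mb.

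The contrast between the classes was seen among the strongest estradiol peaks, while few of the weaker ones were called in either class. Nuclear estradiol peaks were ranked by the p-value of the caller. Of the strongest 10%, the combination library called 36 of 43 near a gap (83.7%, 69.3 to 93.2) and 46 of 434 elsewhere (10.6%, 7.86 to 13.9). For the same peaks vehicle called 31 of 43 (72.1%, 56.3 to 84.7) and 365 of 434 (84.1%, 80.3 to 87.4). The near-gap peaks of this decile were also taller, with a median of 39 estradiol tags against 31. In the second decile, where both medians were 26 tags, the combination library called 5 of 14 near a gap (35.7%, 12.8 to 64.9) and 10 of 462 elsewhere (2.16%, 1.04 to 3.94). In the third it called 3 of 18 and 2 of 459, and in each decile from the fourth on none near a gap and at most 1 elsewhere. Over the weaker 90% together it called 8 of 77 near a gap (10.4%, 4.59 to 19.4) and 13 of 4211 elsewhere (0.309%, 0.164 to 0.527). Among the 100 strongest, all 19 near a gap and 30 of 81 elsewhere (37.0%, 26.6 to 48.5) were called with the combination. Among the weaker 50% of the nuclear estradiol peaks it called 0 of 31 near a gap, which allows a share of up to 11.2% by the exact interval, and 1 of 2351 elsewhere. The estradiol peaks elsewhere that the combination library did call were tall and wide. Their median pileup was 34 tags and their median length 225 bp, against 20 tags and 137 bp for the 4586 that it did not call. Near a gap the called ones were tall (39 against 19 tags) but not wider (114 against 124 bp).

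**Figure D3:**
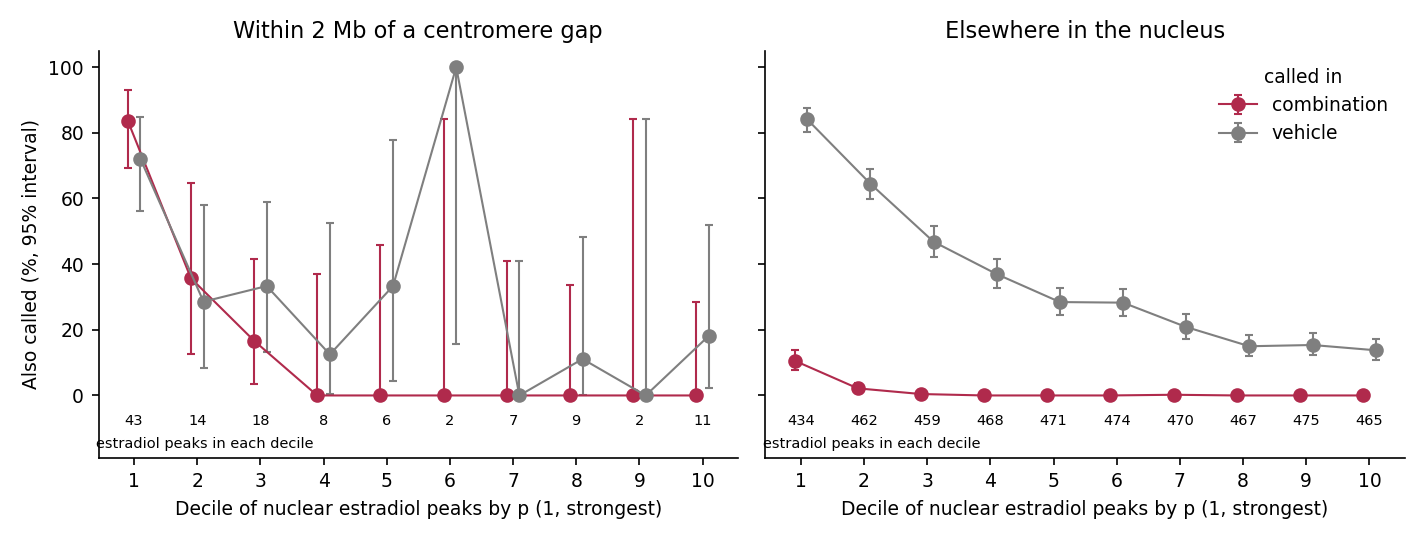
Share of nuclear estradiol peaks also called with the combination (red) or vehicle (grey), by strength (x axis, deciles of the list by p-value, 1 being the strongest), near a centromere gap (left) and elsewhere (right); bars are 95% exact intervals and the row of figures gives the number of estradiol peaks. In the first decile the combination value is 83.7% on the left and 10.6% on the right.

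The highest combination peaks elsewhere in the nucleus were also among the highest in the estradiol library. Fold enrichment, the pileup over the local background of the same library with 1 added to each, is the authors' value for each peak. The top peak, chr1:569886-569970, had a pileup of 64 tags and a fold enrichment of 32.8 with the combination, and 86 tags and 21.3-fold with estradiol. It ranked first in the estradiol list by p-value, and was called in vehicle with 74 tags and in dexamethasone with 86. A long stretch of nuclear DNA copied from the mitochondrial genome is known in this part of chromosome 1. Whether the other peaks named here lie in repeats or copied sequence was not examined. The next, chr12:20704374-20704483, had 31 tags (22.4-fold) with the combination and 43 tags (19.7-fold) with estradiol. The peak at chr9:44070719-44070784 had 24 tags (21.6-fold) against 27 (17.2-fold), and lay 3.30 Mb from its gap. At chr11:85195021-85195166 the pileups were 31 and 68 tags, and at chr17:33478124-33478328 27 and 53. The remaining 3 of the 8 highest were chr5:71146749-71146932, chr5:134260231-134260298 and chr8:100508100-100508169, with 24, 43 and 21 tags against 36, 62 and 29. All 8 were called in all 4 libraries, and in each the combination pileup was below the estradiol pileup.

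Near the gaps the highest combination peak was chr7:61969310-61969397, with 55 tags (27.7-fold) against 72 (22.1-fold) with estradiol and 55 with vehicle. The X chromosome held a pair among the 8 highest, on either side of its gap. The peak chrX:58561380-58561446 had 30 tags against 37 and chrX:61839284-61839338 had 21 against 28. The others were chr17:22020695-22020751 (28 against 30 tags), chr2:92281291-92281360 (23 against 26), chr10:42385156-42385260 (53 against 77), chr16:34022713-34022768 (20 against 26) and chrY:10037804-10037879 (20 against 36). The peak on chromosome 2 was absent from the dexamethasone list, and the other 7 were called in all 4 libraries. In each of these 8 the combination pileup was below that with estradiol.

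Heights were next compared over all overlapping pairs, each combination peak being set beside the tallest estradiol peak it overlapped. Near a gap the combination pileup was mostly closer to the estradiol pileup than the number of tags was. Elsewhere the ratios were spread widely on both sides of that of the tags, from 0.179 to 0.889, and only their median matched it. The highest of these was at chr9:44070719-44070784 and the lowest at chr12:56211689-56211797, so the pairs elsewhere are a mixed set. The median ratio of combination to estradiol pileup was 0.681 near a gap (interquartile range 0.558 to 0.779, 50 pairs) and 0.408 elsewhere (0.320 to 0.564, 62 pairs). The ratio exceeded that of the tags, 0.408, in 48 of 50 pairs near a gap and in 31 of 62 elsewhere. It fell below that of tags times fragment length, 0.248, in 0 of 50 and 2 of 62. Few pairs could fall below that second measure, since a combination peak had to pass the caller's threshold to form a pair, so no conclusion is drawn from it. No pair exceeded 1. For the same reason low ratios are missing from both classes, and not to the same extent. The lowest combination pileup was 12 tags near a gap and 8 elsewhere, and the median background 1.03 and 0.388 tags. The part of this cut in the contrast between the classes was not tested. Vehicle heights were alike in both classes. Over the 27 near-gap estradiol peaks called in both vehicle and the combination, the median vehicle ratio was 0.764 and the combination ratio 0.667. Over the 52 elsewhere they were 0.776 and 0.395. The ratio of vehicle to estradiol was 0.530 for tags and 0.656 for tags times fragment length. The vehicle medians of both classes thus lay above both ratios.

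The authors' fold enrichment was higher with the combination in 39 of 50 pairs near a gap (medians 13.9 and 12.1) and in 12 of 62 elsewhere (medians 9.83 and 13.2), but this contrast rests on the 1 added to pileup and background. The median background at the pairs elsewhere was 0.388 tags with the combination and 1.60 with estradiol, so the added 1 weighs more on the combination value. With nothing added, the ratio of pileup to background was higher with the combination in 47 of 50 pairs near a gap and in 59 of 62 elsewhere, by a median of 1.67 and 1.59 times. The background fell more than the pileup in both classes. Its median ratio was 0.420 near a gap and 0.248 elsewhere, and the ratio of tags times fragment length was also 0.248. The summits of the pairs lay within 10 bp of each other in 30 of 50 cases near a gap, with 8 at the same base, and in 19 of 62 elsewhere, with 3 at the same base. The combination peak lay wholly inside the estradiol peak in 46 of 50 and 59 of 62 pairs.

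**Figure D4:**
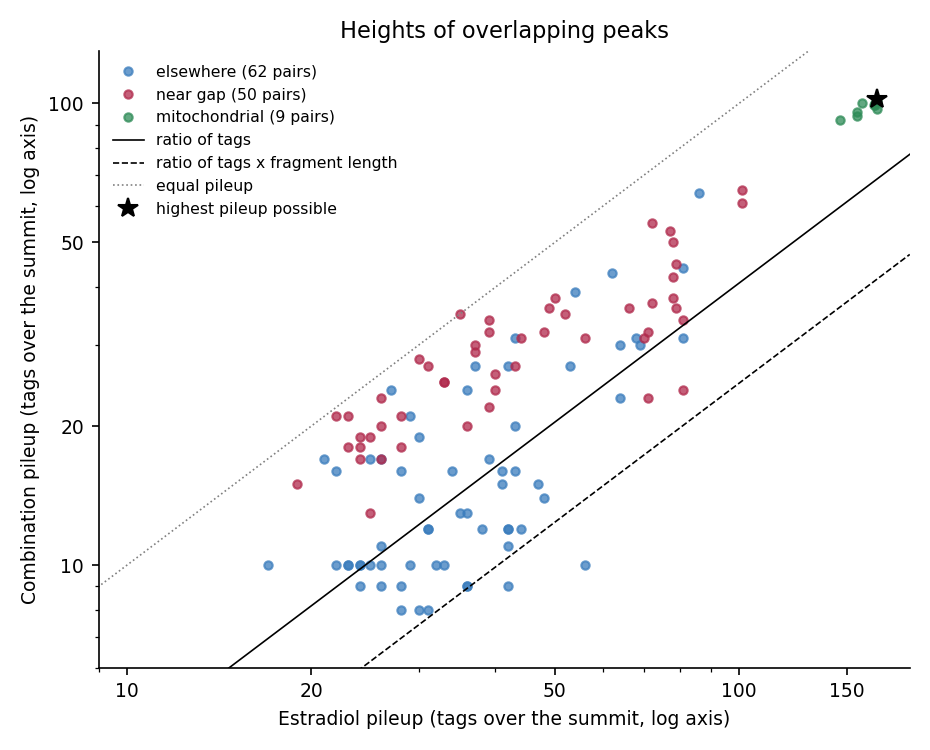
Pileup of each combination peak (y axis) against that of the tallest estradiol peak it overlaps (x axis), both in tags over the summit on log axes, coloured by class. Most near-gap pairs (red) lie above the solid line of the tag ratio, pairs elsewhere (blue) scatter around it, and the mitochondrial pairs (green) sit beside the star that marks the highest pileup possible in both libraries. Few pairs lie below the dashed line of the ratio of tags times fragment length.

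Mitochondrial pileups were close to the ceiling that duplicate removal sets. With 1 tag kept per position and strand and each tag extended to the fragment length, at most 102 tags can cover a base in the combination library and 168 in the estradiol library. The 11 combination peaks had pileups of 92 to 101 tags, 90.2% to 99.02% of that ceiling, and the 7 estradiol peaks reached up to 168 tags, 86.9% to 100% of theirs. With dexamethasone they were 158 to 178 of 178 tags (88.8% to 100%). Vehicle had the lowest value, with 162 to 207 of 208 tags (77.9% to 99.5%). The median ratio of the 9 pairs, 0.601, was close to the ratio of the ceilings, 0.607. A pileup at the ceiling cannot rise further, whatever the accessibility. Nuclear pileups reached 65 tags with the combination, 63.7% of its ceiling, and 101 with estradiol, 60.1%.

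Of the 11 mitochondrial combination peaks, 9 fell on the 7 estradiol peaks, which the combination list divided more finely. Both had a peak beginning at position 38, ending at 623 with the combination and 624 with estradiol, and with the highest mitochondrial fold enrichment of each list (3.31 and 2.96). The estradiol peak from 15072 to 16136 was met by a pair in the combination list, from 15559 to 15894 and from 15950 to 16146, and the estradiol peak from 2198 to 2423 by another pair, from 2216 to 2287 and from 2341 to 2438. The combination peaks without an estradiol counterpart lay from 1370 to 1424 (94 tags) and from 1707 to 1770 (96 tags). Neither was called in any other library. The remaining combination peaks ran from 712 to 832, 2691 to 2899, 3086 to 3795 and 16229 to 16525, each over an estradiol peak. In total 2745 bp of mitochondrial DNA were called with the combination and 3289 bp with estradiol.

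The peaks near gaps were also crowded, so that their number overstates the number of places. When peaks within 10 kb of each other were merged, the 62 near-gap combination peaks became 31 regions and the 73 elsewhere became 68. The 120 near-gap estradiol peaks became 93 regions. On chromosome 6, 7 combination peaks lay within 1.98 kb (from 58777119 to 58779093), 51.1 kb from the gap, with 36 to 50 tags each, and estradiol had 6 peaks there. On chromosome 10, 7 lay within 17.0 kb (from 42379888 to 42396900), where estradiol had 3 peaks and vehicle and dexamethasone 1 each. On chromosome 21, 6 lay within 1.996 kb (from 9825499 to 9827494), with 4 peaks in each other list. On chromosome 2, 5 peaks lay within 27.4 kb (from 92269473 to 92296895), where estradiol also had 5. On chromosome 18, 4 lay within 3.17 kb (from 18517155 to 18520328), where estradiol had 3, dexamethasone 1 and vehicle none. Away from the gaps the largest such group was 3 peaks on chromosome 18 from 108199 to 109338, with 31 to 44 tags.

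Most of the 23 nuclear combination peaks with no estradiol counterpart were narrow and were called in no other list. Of the 23, 12 lay near a gap, 18 were called in no other library, 3 were in the dexamethasone list and 2 in the vehicle list. Over all 135 nuclear combination peaks, the dexamethasone list held 100 (74.1%) and the vehicle list 89 (65.9%). The median length of the 23 was 53 bp, against 67 bp for the nuclear peaks with a counterpart. A peak cannot be shorter than the fragment length of 51 bp, and 18 of the 23 were at most 5 bp longer than that. All 12 near-gap peaks were. Their fold enrichments ranged from 7.79 to 16.1.

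Near the gaps, 9 of these 12 peaks had an estradiol peak within 10 kb. The 5 on chromosome 10 began at 42379888, 42380243, 42384707, 42396850 and 42408265, the first 4 with 32 tags each and the last with 15, and lay 0.376 to 5.19 kb from an estradiol peak. On chromosome 18 the peaks beginning at 18517155 (39 tags) and 18519287 (32 tags) lay 0.886 and 0.260 kb from one. The peak chr17:22261584-22261634 (12 tags) lay 1.37 kb from the gap and was also called with vehicle (17 tags), and chr19:27738462-27738515 (22 tags) was also called with dexamethasone (28 tags). The remaining 3 were chr12:34372619-34372669 (13 tags), chr21:9696123-9696176 (15 tags) and chrY:13801069-13801121 (14 tags), called in no other library and 197, 129 and 41.5 kb from the nearest estradiol peak.

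Away from the gaps, none of the 11 peaks without a counterpart had an estradiol peak within 10 kb. Those also called with dexamethasone alone were chr2:133012827-133012884, with 25 tags against 34 with dexamethasone, and chr8:82754675-82754787, with 12 against 22. The peak chr19:36066542-36066592 (13 tags) was called with vehicle (14 tags). Of the 8 called in no other library, 4 lay between 2 and 3 Mb from a gap: chr2:89853206-89853262 (24 tags, 15.1-fold), chr2:89875284-89875337 (29 tags, 12.95-fold), chr11:48805131-48805181 (13 tags) and chr11:48894784-48894834 (15 tags). Another, chr9:67320790-67320896, had 8 tags, the lowest pileup in the list, which some peaks called in all 4 libraries also had. The peak chr18:50319145-50319198 (14 tags, 12.8-fold) was the farthest from any estradiol peak, at 1477 kb. The final pair, chr3:178928018-178928068 (12 tags, 9.13-fold) and chr3:178941888-178941956 (22 tags, 16.1-fold), lay on the same stretch of chromosome 3, 51.2 and 37.3 kb from an estradiol peak. Whether the tags of this pair came from chromosomal DNA was not tested. Of these 11 peaks, 2 were thus shared with dexamethasone and 1 with vehicle. Over all 73 combination peaks elsewhere, dexamethasone held 62 (84.9%) and vehicle 55 (75.3%).

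**Figure D5:**
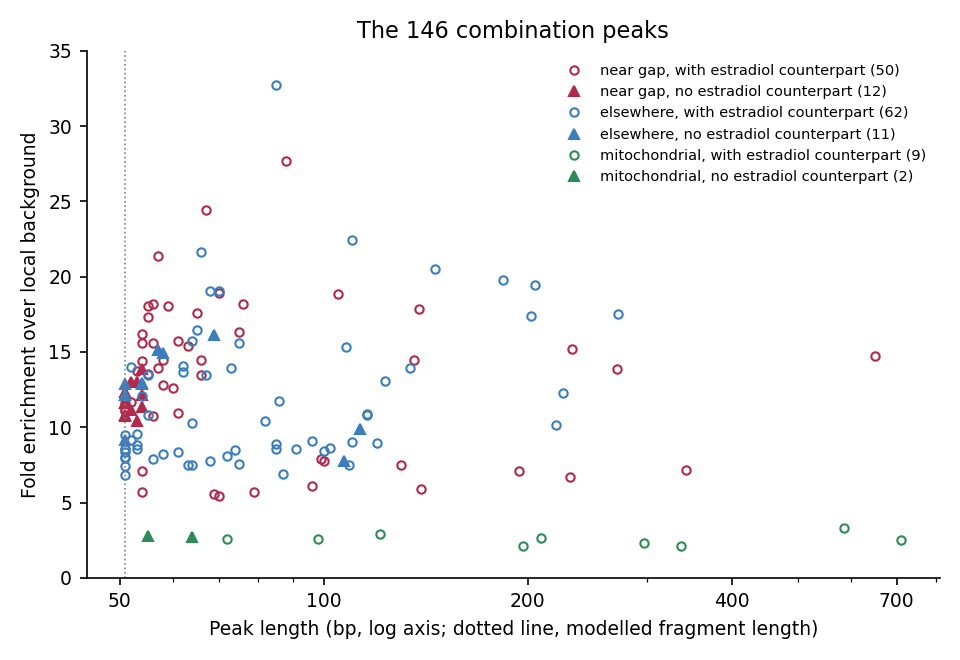
Length (x axis, bp, log axis) and fold enrichment (y axis) of every combination peak, by class (colour) and by whether an estradiol peak overlaps it (open circles) or not (filled triangles). The triangles crowd against the dotted line at the fragment length of 51 bp, and the mitochondrial peaks lie lowest, at 2.103-fold to 3.31-fold.

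On the Y chromosome all peaks lay near the gap, so the contrast between the classes could not be seen there. The peak chrY:10037804-10037879 was described above. The peak chrY:13485395-13485455 had 32 tags with the combination and 39 with estradiol, and chrY:13842698-13842748 had 13 and 25. Neither was called with vehicle or dexamethasone. The peak chrY:10025202-10025267 had 18 tags with the combination, 23 with estradiol and 24 with dexamethasone. The fifth, chrY:13801069-13801121, was the one without a counterpart. Copies of Y repeats elsewhere in the genome were not examined. Where the tags placed on Y came from in this endometrial line was not tested, so these peaks cannot be read as Y chromosome loci.

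Some of the strongest estradiol peaks had no counterpart in the combination list. Away from the gaps the 5 highest by fold enrichment were chr1:164528021-164528241 (37 tags, 17.3-fold), chr21:38807526-38807715 (31 tags, 17.1-fold), chr3:99979571-99979768 (39 tags, 16.9-fold), chr14:100659310-100659561 (36 tags, 16.6-fold) and chr9:103174009-103174173 (32 tags, 16.4-fold). They ranked between 20 and 63 among the 4765 nuclear estradiol peaks by p-value. All 5 were called with dexamethasone alone, with 29 to 39 tags, and 3 with vehicle. Of all 4586 estradiol peaks elsewhere without a combination counterpart, dexamethasone held 89.0% and vehicle 34.3%. Near a gap the 5 highest ranked between 191 and 1018. They were chr7:56174187-56174329 (26 tags, 15.1-fold), chr8:48739214-48739388 (24 tags, 14.2-fold), chr16:34441901-34442133 (28 tags, 13.6-fold), chr10:42406721-42406804 (23 tags, 13.04-fold) and chr12:34175227-34175381 (19 tags, 12.3-fold). All but the one on chromosome 10 were called with dexamethasone, which held 59 of all 76 near-gap estradiol peaks without a combination counterpart (77.6%). The missing near-gap peaks lay farther out: their median distance from the gap was 1190 kb, against 120 kb for those that were called.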

How the data were processed

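Each library has its own deposited peak table, with positions on hg19 counted from 1. The authors made the tables with MACS2 2.1.0.20140616 on each library alone, with no control and no pooling, at a p cutoff of 1e-10, a local background window of 10000 bp, at most 1 tag per position and tags of 50 bp, per the file headers. Bowtie 1.1.2 and hg19 are named per the submitters' processing notes. No transposase shift was set per the file headers, so heights count extended tags and not cut sites. The pileup signal deposited by the authors counts whole tags and has no scaling for depth. Their deposited fold enrichment, a ratio, divides pileup by local background. The authors deposited −log10 p-values and −log10 q-values from that background. Other deposited columns give length and summit. Total tags before duplicate removal were 12843911 (combination) and 28148235 (estradiol), with redundant rates of 0.36 and 0.28.

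Overlap was at least 1 bp. The positions of the 24 centromere gaps were entered by hand from knowledge of hg19 and not checked against an assembly file; 0 of 15269 peaks lay inside one, and the nearest was 190 bp away. Shares carry 95% exact Clopper-Pearson intervals; tags are not independent molecules and peaks are not replicates. Named peaks are, by fold enrichment, the 8 highest combination peaks of each nuclear class, all mitochondrial, Y and unmatched nuclear ones, and the 5 highest estradiol peaks without a counterpart in each nuclear class. The members, classes and rules were chosen with earlier results of these data known. Planned gene lists, cell markers and motifs were not run, since no hg19 annotation or sequence was used. Code was tested on simulated data. Python 3.11.15, numpy 2.4.6, pandas 2.3.3, scipy 1.17.1 and matplotlib 3.10.9 were used.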

Additional observations from a re-analysis of the deposited data

Results flagged for a closer look

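The ratio of peak counts with to without dexamethasone lay on opposite sides of 1 in the absence and presence of estradiol, in each class. This difference was not tested because there was a single library in each arm. Near a gap it was 2.91 (157 against 54 peaks) without estradiol and 0.517 (62 against 120) with it. Elsewhere in the nucleus it was 4.44 (8264 against 1861) and 0.0157 (73 against 4645). In mitochondrial DNA the order was the opposite, 0.875 (7 against 8) and 1.57 (11 against 7), but only in the count of peaks. The mitochondrial bases called were fewer with dexamethasone in both contrasts, 3297 against 3525 bp and 2745 against 3289 bp. With peaks within 10 kb merged, the combination and estradiol lists had 2 mitochondrial regions each, and dexamethasone had 2 against 1 with vehicle. The modelled fragment length was 89 against 104 bp in the first contrast and 51 against 84 bp in the second. Tags after duplicate removal were 14980230 against 10694743 in the first and 8240912 against 20185339 in the second, so depth moved the same way as the nuclear counts in both. The part of fragment length and depth in these ratios was not tested.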

How the results depend on the processing

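Over 20 values and their alternatives, 121 of 150 recomputed values stayed within the interval of the reported one (for heights, the interquartile range). The others follow, and the cause was not tested unless the alternative's construction gives it. The near-gap share of the combination list became 55.0% at a −log10 q of at least 10, 53.6% at a −log10 p of at least 15 and 30.7% with peaks within 10 kb merged, where its mitochondrial share became 1.98%. The near-gap share of the estradiol list became 1.42% at 1 Mb from a gap, 5.72% at 5 Mb, 2.08% merged and 15.8% at equal list length (its strongest peaks, an alternative chosen after seeing the data), where its mitochondrial share became 0.685% (0.0448% merged). At equal list length the combination peaks with a counterpart fell to 45.9% of all, 45.2% near a gap, 52.1% elsewhere and 9.09% in mitochondrial DNA, since fewer estradiol peaks could match. In mitochondrial DNA this share rose to 100% with peaks extended by 500 bp or merged, and the height ratio became 0.589 when extended. Estradiol peaks with a combination counterpart became 1.88% of all at the q threshold and also when merged, 0.750% (q) and 0.886% (p) elsewhere, and near a gap 54.4% at 1 Mb, 16.8% at 5 Mb and 26.9% merged. Among the strongest estradiol peaks, recall elsewhere became 7.55% at the q threshold and 28.5% for as many of the strongest peaks as the combination list holds, of which 100% were recalled near a gap. Pairs with a higher fold enrichment with the combination rose from 78% to 94% near a gap and from 19.4% to 95.2% elsewhere when nothing was added to pileup and background (also chosen after seeing the data). In every setting run, recall of estradiol peaks was higher near a gap than elsewhere. A fold enrichment of at least 5 and chromosomes 1 to 22 and X leave no mitochondrial peaks, so these give no mitochondrial value. No paired analysis was possible because each treatment had 1 library. A missing call means below the threshold at 8240912 tags.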

Other observations

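The contrast between the classes was also seen from the lists that had no estradiol. The combination library called 28 of the 54 vehicle peaks near a gap (51.9%, 37.8 to 65.7) and 52 of the 1861 elsewhere (2.79%, 2.09 to 3.65). Of the dexamethasone peaks it called 32 of 157 near a gap (20.4%, 14.4 to 27.5) and 59 of 8264 elsewhere (0.714%, 0.544 to 0.920). At the same pairs of overlapping peaks near a gap, the median implied background was 6.63 times the average coverage of the combination library and 4.20 times that of the estradiol library. At the pairs elsewhere it was 2.49 and 2.55 times. Over all peaks of a list, near a gap and elsewhere, it was 6.63 and 2.49 times with the combination, 1.67 and 1.89 with estradiol, 2.54 and 2.47 with vehicle, and 2.07 and 2.31 with dexamethasone. These sets of peaks differ between the lists.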
